A study of Mus musculus with 6 samples.

Results

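The genes described here encode 33 proteins of the lysosome, namely its soluble hydrolases, some of their cofactors and a group of proteins of its limiting membrane. They were chosen by name and not by a rule on measured values, but with earlier results of these data known. They comprise 10 proteases, 9 glycosidases, 3 sulfatases, 5 proteins of lipid degradation and export, 5 membrane proteins and the progranulin gene Grn. All 33 were present among the 55487 genes listed, and 31 of them were among the 12669 genes that passed the filter on low counts and were tested. The cells were B16F10, a mouse melanoma line. They had been infected either with a lentivirus carrying a scrambled short hairpin RNA (shCtr, n = 3) or with a single hairpin against Osgep (shOSGEP, hairpin #2, n = 3), and both groups had been selected with puromycin. OSGEP transfers the threonylcarbamoyl group in the t6A modification of tRNAs, as part of the KEOPS complex, and the RNA of 3 separate infections per group was sequenced after selection of polyA RNA. As a model, each group is therefore 1 line and 1 hairpin, with no second hairpin sequenced to set beside it. The question asked here was whether transcripts of lysosomal genes differ between shOSGEP and shCtr cells.

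Lysosomes are acidic organelles in which proteins, glycans and lipids delivered by endocytosis, autophagy and phagocytosis are degraded. Their hydrolases are made in the endoplasmic reticulum, most receive a mannose-6-phosphate tag in the Golgi, and receptors carry them to endosomes, while a proton pump, the V-ATPase, keeps the lumen acidic. Many of these genes carry an extended E-box word, the CLEAR element, which is bound by the MiT/TFE transcription factors TFEB, TFE3 and MITF. In pigment cells the same machinery is closely related to that of melanosomes, and MITF is the master factor of the melanocyte lineage.

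An extended E-box was more frequent among the members than among other genes. As stated above, many lysosomal genes carry such a word, so the share describes the list and is not a test of it. The word TCACGTG, read on either strand, contains the shorter E-box CACGTG and overlaps its own reverse complement wherever the palindrome of both is present. It was searched in the RefSeq promoter windows (GRCm38.p6), which run from 250 bases before to 50 bases after an annotated start. Of the 33 members, 29 had a window, and 11 of these 29 (37.9%) held the word: Ctsa, Ctsd, Gaa, Gla, Glb1, Naglu, Arsa, Sgsh, Lamp1, Mcoln1 and Cln3. Over all 32851 windows the share was 3.77%. Counted per gene, as for the members, it was 4.29% of the 27025 genes with a window and 7.22% of the 9640 tested ones. The 29 members include Ctsk and Ctss, which were not tested. CACGTG alone was present in 13 of the 29 members, with Ctsf and Ctsl added, against 12.1% of the tested genes with a window. The stretches below are those of the 7 holders whose levels are given library by library further on. Capitals mark TCACGTG or its reverse complement, and each stretch is read 5′ to 3′ on the strand of the gene.
Lamp1 (chr8:13159087-13159163, plus strand, 4 separate sites): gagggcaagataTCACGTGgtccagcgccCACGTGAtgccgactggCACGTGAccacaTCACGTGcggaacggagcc
Cln3 (chr7:126583339-126583397, minus strand, 2 separate sites): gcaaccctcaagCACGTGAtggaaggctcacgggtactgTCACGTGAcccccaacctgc
Gla (chrX:134601181-134601245, minus strand, 2 separate sites): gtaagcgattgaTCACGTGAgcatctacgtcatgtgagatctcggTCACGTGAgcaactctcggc
Ctsd (chr7:142387907-142387938, minus strand, 1 of 2 sites): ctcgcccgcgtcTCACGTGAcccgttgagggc
Gaa (chr11:119267810-119267840, plus strand, 1 site): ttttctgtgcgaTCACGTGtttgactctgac
Arsa (chr15:89477423-89477453, minus strand, 1 site): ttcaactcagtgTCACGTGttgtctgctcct
Sgsh (chr11:119355521-119355551, minus strand, 1 site): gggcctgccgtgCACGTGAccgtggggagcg

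**Figure D1:**
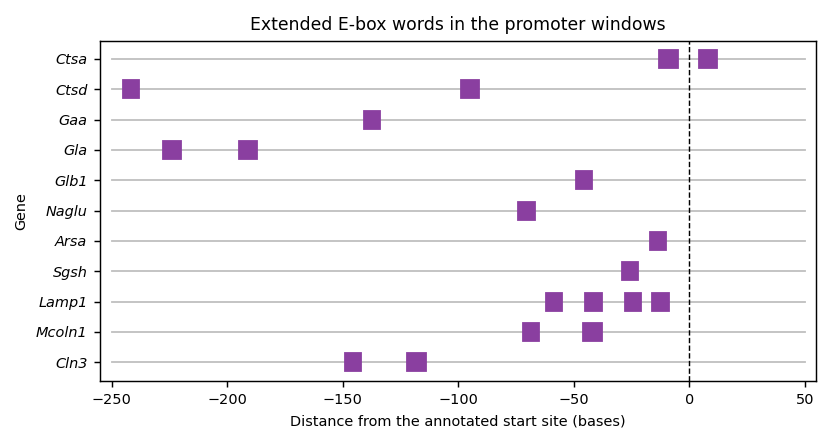
Positions of TCACGTG on either strand (purple blocks) in the promoter windows of the 11 members that hold it, with the distance from the annotated start (dashed line) in bases on the horizontal axis. Lamp1 holds 4 separate sites, all within the 62 bases before its start, whereas both sites of Gla lie 195 or more bases before it.

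The knockdown and the libraries were examined before the members. Osgep was measured at 20.6, 58.6 and 21.8 CPM (counts relative to library size, with TMM factors that align the bulk of genes between libraries) in shCtr replicates 1, 2 and 3, against 4.28, 0.542 and 5.52 CPM in shOSGEP replicates 1, 2 and 3, the order used throughout. All 3 shOSGEP values lay below all 3 shCtr values (Log2FC -3.29, SE 0.876, exact permutation p = 0.1). In the edgeR test used below, Osgep had an unadjusted p of 0.0052 and an adjusted p of 0.9997. The target of the hairpin was thus itself not called at an adjusted p under 0.05. The libraries held between 18915587 and 29487384 counts. The library shCtr replicate 2 stood apart from the other 5. Its TMM factor was 0.690, and on the first principal component, which carried 68.4% of the variance, it scored 148 against -76.5 to 29.0 for the rest. The library shOSGEP replicate 2 differed in another respect. Its summed level of 12 melanocyte markers was 3784 CPM, against 16288 to 32167 CPM in the other libraries. Of 12 melanocyte marker genes, all 12 were tested, so the melanoma identity of the line was visible, whereas 7 of 16 macrophage and osteoclast markers, Ptprc, Adgre1 and Itgam among them, had no count in any library. The summed level of those 16 markers was 6.04 to 11.7 CPM in shCtr, against 4.73 to 6.66 CPM in shOSGEP. Single genes were also compared by an exact two-sided permutation test of mean log2 CPM, in which 3 libraries against 3 cannot give a p below 0.1.

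None of the lysosomal genes passed the test of differential expression. At an adjusted p under 0.05 (edgeR quasi-likelihood test, Benjamini-Hochberg over all 12669 genes) 0 of 31 members were called, where the background over all genes was 0.00%. The threshold of the study, a Log2FC beyond 0.5 with an unadjusted p under 0.05, was passed by 0 of 31 members and by 2.02% of all genes. No member had an unadjusted p under 0.05, and the smallest, that of Ctsz, was 0.159 in edgeR. DESeq2 called 0 of 31 members at an adjusted p under 0.05, beside 0.111% of all genes. The median Log2FC of the members was -0.24, beside -0.03 over all genes tested, and 22 of 31 members had a value below 0 (71.0%, against 52.7% of all genes). The SE of a member's Log2FC ranged from 0.362 to 0.856, with a median of 0.480, so differences of that order were not detectable in this fit. In bulk RNA such as this, a lower level per cell and fewer cells expressing a gene cannot be told apart. In 2 of 31 members, Lamp1 and Lipa, the groups did not overlap, and in both shOSGEP was the lower group. Over all genes the groups did not overlap in 6.36%, with 2.87% lower and 3.49% higher in shOSGEP.

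**Figure D2:**
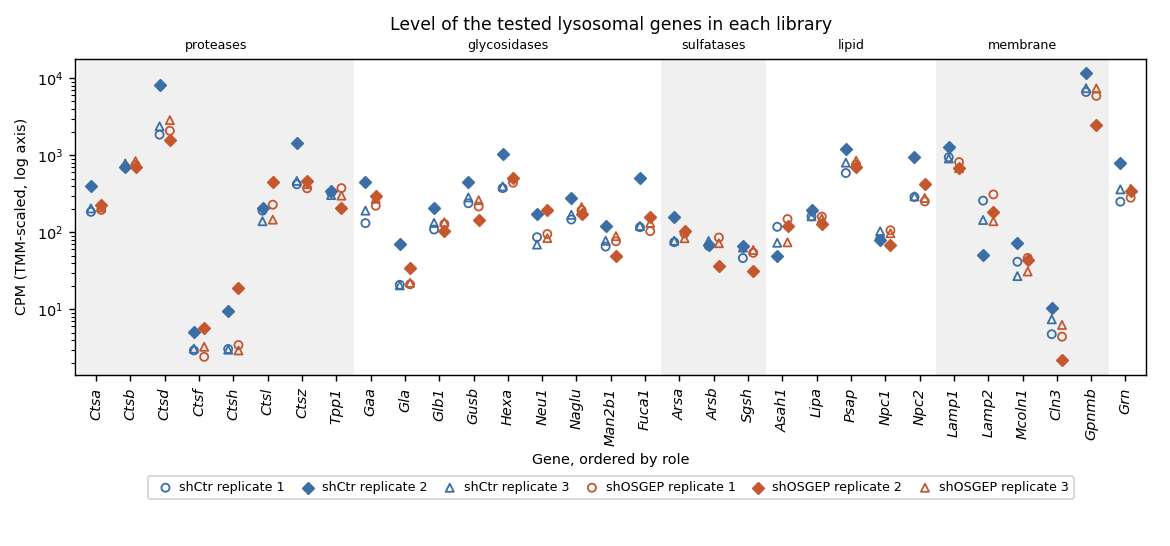
CPM after TMM scaling on a log axis for the 31 tested members, ordered by role, with shCtr in blue, shOSGEP in orange and the libraries of replicate 2 as filled diamonds. For 21 of the 31 genes the filled blue diamond, shCtr replicate 2, is the highest of the 6 points.

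The lower median rested on 1 replicate number. Deviations from the group means correlated between libraries of the same number at 0.811 for replicate 1, 0.557 for replicate 2 and only 0.196 for replicate 3. The highest correlation between different numbers was 0.491, so the pairing is uncertain, for replicate 3 above all. With that limit, the log2 ratio of shOSGEP to shCtr within each number was compared. Its median over the 31 members was 0.17 for replicate 1, -0.81 for replicate 2 and 0.03 for replicate 3, while over all tested genes it was -0.03, 0.11 and -0.01. The ratio was above 0 in 22, 7 and 18 of the 31 members, respectively. It lay beyond 0.5 in either direction in 1 member for replicate 1 (Gaa), in 27 members for replicate 2 and in 1 member for replicate 3 (Gaa again). Over all tested genes the shares beyond 0.5 were 16.9%, 75.0% and 13.1%, so that most genes differed by this much within replicate 2. In 21 of 31 members (67.7%) the highest of the 6 libraries was shCtr replicate 2, a share that was 35.7% over all genes. Summed over the 33 members, the level was 14534, 31206 and 16274 CPM in shCtr, against 14545, 10709 and 16785 CPM in shOSGEP. Without Gpnmb, which had the most counts of the members in every library, the sums were 7896, 19546 and 8842 CPM in shCtr, against 8633, 8237 and 9409 CPM in shOSGEP. The sums of the 5 libraries other than shCtr replicate 2 thus lay within a narrow range for the remaining 32 genes. This holds for the sum and not for each gene. Among the same 5 libraries Ctsd spanned 1595 to 2863 CPM and Ctsl 139 to 452 CPM. When both libraries of replicate 2 were left out, the median Log2FC was 0.10 with 22 of 31 members above 0, and again 0 members were called.

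**Figure D3:**
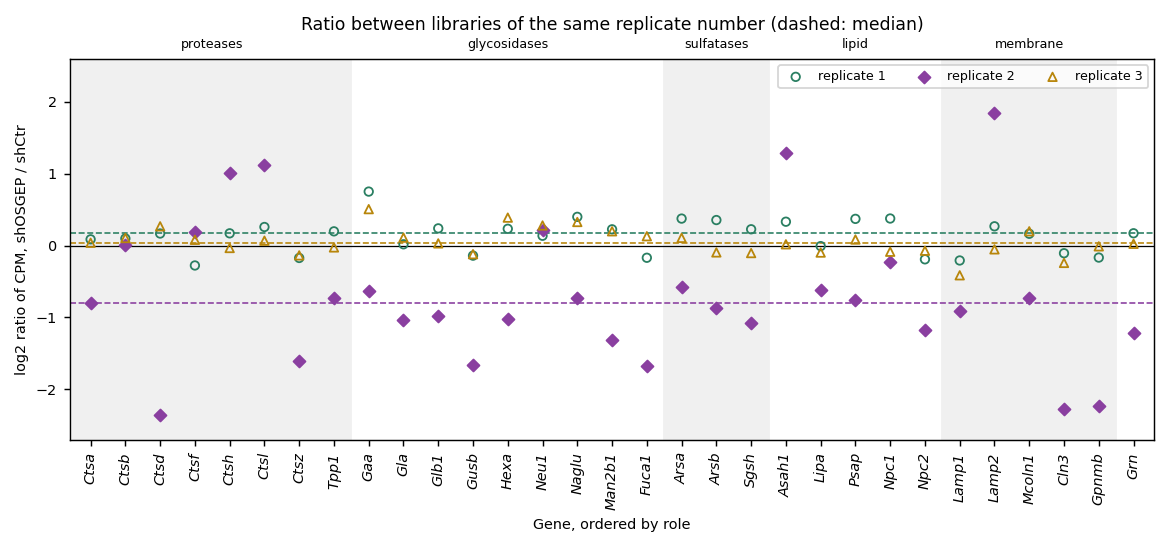
Log2 ratio of shOSGEP to shCtr CPM between libraries of the same replicate number, for each tested member ordered by role, with dashed lines at the medians of 0.17, -0.81 and 0.03. The filled diamonds of replicate 2 are spread from -2.35 to 1.85, whereas the other numbers stay between -0.41 and 0.75.

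The proteases include the cathepsins, which cut proteins within the lysosome, and Tpp1, which removes tripeptides from protein ends. Of 10 proteases, 8 were tested, with 4 above and 4 below 0 and a median Log2FC of -0.05. Ctsk and Ctss, the cathepsins of osteoclasts and of antigen-presenting cells, were not tested: Ctsk had 0 to 8 counts and Ctss 0 or 1 count per library, and a count of 0 allows a level of up to 0.116 to 0.147 CPM. Ctsd, the main aspartic protease of lysosomes, was measured at 1854, 8143 and 2378 CPM in shCtr, against 2082, 1595 and 2863 CPM in shOSGEP. shCtr replicate 2 was more than 3 times as high as any other shCtr library, and the groups overlapped (Log2FC -0.92, SE 0.680, exact permutation p = 0.6). Of the 31-base words of Ctsd, 33.2% are shared with Gm49369, a gene model on the same strand that overlaps it, so its estimated counts are uncertain. Ctsz, a cysteine carboxypeptidase, was at 421, 1429 and 465 CPM in shCtr, against 373, 468 and 423 CPM in shOSGEP. Its within-number ratios were -0.17, -1.61 and -0.14, all of them below 0, with a Log2FC of -0.87 (SE 0.564, exact permutation p = 0.5). Ctsl, a cysteine endopeptidase, had the opposite sign, at 191, 209 and 139 CPM in shCtr, against 229, 452 and 146 CPM in shOSGEP. The single high value was shOSGEP replicate 2, and the Log2FC was 0.62 (SE 0.50, exact permutation p = 0.4). Ctsb, another abundant cysteine protease, was nearly level over the libraries, between 700 and 840 CPM. The remaining proteases, Ctsa, Ctsf, Ctsh and Tpp1, had Log2FC between -0.31 and 0.71, and Ctsf and Ctsh did not exceed 19.0 CPM in any library.

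The glycosidases remove sugars from glycogen, glycolipids, glycoproteins and glycosaminoglycans. All 9 were tested, 7 of them with a Log2FC below 0, and their median was -0.30. Within the replicate numbers their median ratios were 0.23, -1.02 and 0.20. Fuca1, the fucosidase, was at 117, 503 and 121 CPM in shCtr, against 104, 158 and 133 CPM in shOSGEP. Apart from shCtr replicate 2 its levels lay close together (Log2FC -0.91, SE 0.629, exact permutation p = 0.7). Gusb, the beta-glucuronidase, was at 239, 450 and 284 CPM in shCtr, against 217, 143 and 261 CPM in shOSGEP. Its ratios were below 0 in all 3 numbers, at -0.14, -1.66 and -0.12 (Log2FC -0.65, SE 0.443, exact permutation p = 0.2). Gla, the alpha-galactosidase that acts on globotriaosylceramide, was at 20.9, 71.4 and 20.5 CPM in shCtr, against 21.1, 35.0 and 22.1 CPM in shOSGEP. Both groups held a high replicate 2, and the other 4 libraries differed by less than 2 CPM.

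Gaa, the acid alpha-glucosidase that degrades lysosomal glycogen, was the only member whose call changed with the fit, and it was singled out after its values were seen. Gaa (chr11:119267887-119285454, plus strand, GRCm38) was measured at 132, 456 and 191 CPM in shCtr, against 222, 296 and 272 CPM in shOSGEP. In replicates 1 and 3 shOSGEP was the higher library, with log2 ratios of 0.75 and 0.51, and in replicate 2 it was the lower, with -0.63. These cancelled in the test of all libraries (Log2FC 0.02, SE 0.524, exact permutation p = 0.7). limma-voom with a weight for each library and a replicate block, that is the replicate number as a term of the fit, gave the libraries of replicate 2 weights of 0.112 and 0.113 against 1.91 to 4.60 for the others. It called Gaa with a Log2FC of 0.66 (SE 0.143, adjusted p = 0.00018). That fit called 11.1% of all genes at an adjusted p under 0.05, and Gaa was 1 of 31 members (3.23%). Its spread rests on 2 residual degrees of freedom per gene, with 902.5 added from all genes. edgeR with offsets for GC content and transcript length placed Gaa past the study threshold both without a block and with it (Log2FC 0.55), where 4.90% and 6.24% of all genes passed. Its adjusted p was 0.948 and 0.577 in these fits. The other glycosidases, Glb1, Hexa, Neu1, Naglu and Man2b1, had Log2FC between -0.30 and 0.21.

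The 3 sulfatases take sulfate groups from sulfatide and glycosaminoglycans. Their Log2FC were -0.28 for Sgsh, -0.12 for Arsb and -0.11 for Arsa, with p values of 0.522, 0.787 and 0.803 in edgeR. Sgsh, the heparan sulfatase, was at 46.3, 65.9 and 63.4 CPM in shCtr, against 54.2, 31.2 and 59.0 CPM in shOSGEP. Arsb, which acts on dermatan and chondroitin sulfate, was at 66.9, 67.8 and 77.1 CPM in shCtr, against 85.6, 37.0 and 72.2 CPM in shOSGEP. In both genes the lowest value was shOSGEP replicate 2. Arsa, the sulfatide-degrading arylsulfatase, was at 74.5, 156 and 77.8 CPM in shCtr, against 96.6, 105 and 83.8 CPM in shOSGEP. The 2 shCtr values other than that of replicate 2 lay below all 3 shOSGEP values.

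The proteins of lipid degradation and export comprise Asah1, the acid ceramidase, Lipa, the acid lipase of cholesteryl esters and triglycerides, Psap, the precursor of the saposins that present lipids to hydrolases, and the cholesterol exporters Npc1 and Npc2. All 5 were tested, with 2 above 0, and the median was -0.16. Lipa was at 161, 195 and 161 CPM in shCtr, against 160, 127 and 151 CPM in shOSGEP. The groups did not overlap, but the nearest libraries, shOSGEP replicate 1 and the lower shCtr libraries, were almost equal. Its Log2FC was -0.24 (SE 0.362, exact permutation p = 0.1), its ratio within replicate 1 was -0.01, and the groups overlapped under upper-quartile scaling and when at least 10 counts were required in every library. The Log2FC was -0.92 with offsets for GC content and length, -0.61 with offsets and a replicate block, and -0.04 with library weights and a block. Asah1 was at 118, 49.8 and 73.2 CPM in shCtr, against 149, 122 and 74.1 CPM in shOSGEP. Its ratios were above 0 in all 3 numbers, at 0.33, 1.29 and 0.02 (Log2FC 0.52, SE 0.476, exact permutation p = 0.2). Npc2 was at 288, 952 and 293 CPM in shCtr, against 252, 423 and 279 CPM in shOSGEP, with both replicate 2 libraries high (Log2FC -0.68, SE 0.577, exact permutation p = 0.5). Psap, the highest of the 5 per kilobase, and Npc1 had Log2FC of -0.16 and 0.04.

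Among the membrane proteins, Lamp1 and Lamp2 form most of the glycoprotein lining of the lysosome, Mcoln1 is its calcium channel, Cln3 is the protein lost in juvenile Batten disease and Gpnmb is a glycoprotein of melanosomes and lysosomes. Lamp1 (chr8:13159161-13175338, plus strand, GRCm38) was at 943, 1297 and 909 CPM in shCtr, against 817, 687 and 682 CPM in shOSGEP, and every shOSGEP library lay below every shCtr library. Means were 1050 ± 215 CPM and 729 ± 76.5 CPM (SD, n = 3), and the within-number ratios were -0.21, -0.92 and -0.41. The Log2FC was -0.53 (SE 0.414, exact permutation p = 0.1, unadjusted p = 0.238 in edgeR), so this difference did not pass the test. The groups also stayed apart under the 4 alternatives that rescale or refilter all 6 libraries, and the Log2FC over all 19 alternatives ranged from -0.68 to -0.28. Without replicate 2 it was -0.30. A gene on the opposite strand, Grtp1, overlaps Lamp1, and the library protocol is not stated to be stranded, so reads of the overlap cannot be assigned to either gene.

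Lamp2, its relative, went the other way, at 258, 51.5 and 144 CPM in shCtr, against 311, 185 and 139 CPM in shOSGEP. It was the member with the widest range among shCtr libraries (5.01-fold), the lowest being shCtr replicate 2, and its Log2FC was 0.48 (SE 0.615, exact permutation p = 0.5). Cln3 was low, at 4.76, 10.5 and 7.42 CPM in shCtr, against 4.42, 2.17 and 6.28 CPM in shOSGEP. Its ratios were -0.11, -2.27 and -0.24, all below 0 (Log2FC -0.82, SE 0.580, exact permutation p = 0.2), and it overlaps Apobr on the opposite strand. Mcoln1 had a Log2FC of -0.22.

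Gpnmb was measured at 6639, 11660 and 7432 CPM in shCtr, against 5912, 2472 and 7376 CPM in shOSGEP. Its ratios were -0.17, -2.24 and -0.01, so that replicate 3 was level and replicate 2 differed most (Log2FC -0.71, SE 0.613, exact permutation p = 0.2). Per kilobase of its principal transcript, Gpnmb had the highest level of the members in the mean of shCtr, 2317 CPM per kilobase against 1939 for Ctsd. That order was turned in both libraries of replicate 2, in which Ctsd was at 3828 and 750 CPM per kilobase and Gpnmb at 3150 and 668. In the same libraries the summed level of the 12 melanocyte markers was 18715, 32167 and 17897 CPM in shCtr, against 19167, 3784 and 16288 CPM in shOSGEP. All 12 had a Log2FC below 0, against 52.7% of all genes, and 0 passed the test. Within replicates 1, 2 and 3 the median log2 ratios of the 12 markers were -0.03, -3.15 and -0.02, so that replicate 2 differed most. The library with the lowest sum was also the one with the lowest Gpnmb level. The part of the markers in the values of Gpnmb was not tested.

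Grn encodes progranulin, a secreted growth factor that is cut into granulins in the lysosome. Its levels were 250, 797 and 361 CPM in shCtr, against 281, 342 and 367 CPM in shOSGEP. Once more shCtr replicate 2 was alone above the others, which spanned 250 to 367 CPM (Log2FC -0.51, SE 0.512, exact permutation p = 0.8).

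**Figure D4:**
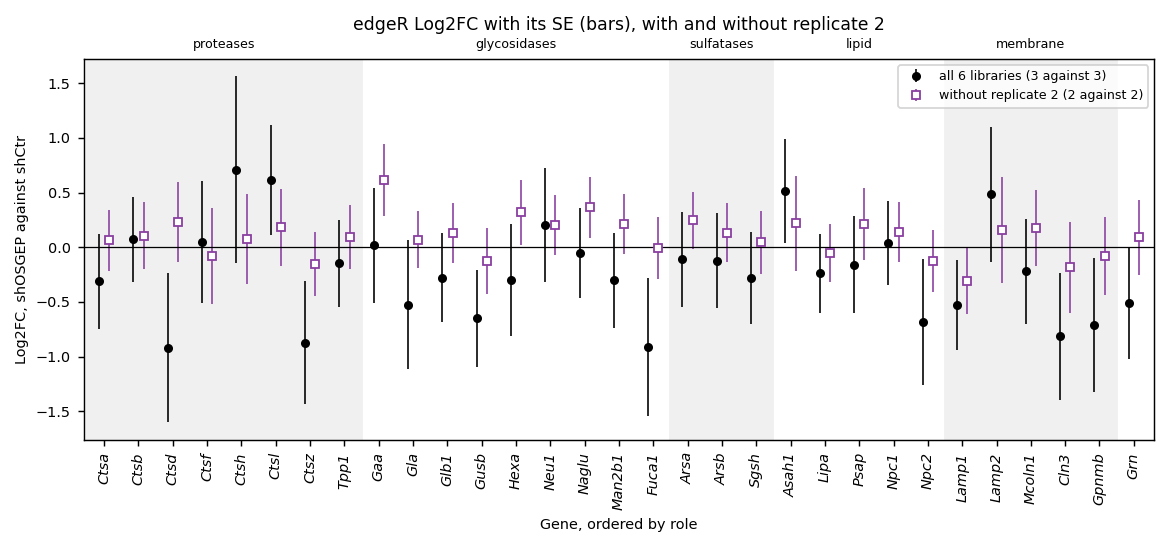
edgeR Log2FC (shOSGEP against shCtr) of each tested member with its SE as bars, from all 6 libraries (black circles) and without both libraries of replicate 2 (open squares). Ctsd moves from -0.92 to 0.23 and Fuca1 from -0.91 to -0.01, Lamp1 stays below 0 at -0.53 and -0.30, and Gaa is the highest open square at 0.61.

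The sign of most members depended on how the libraries were treated. Over 19 alternatives, 6 members had a Log2FC below 0 in every one (Ctsz, Gusb, Lipa, Lamp1, Cln3 and Gpnmb) and 3 had one above 0 in every one (Ctsl, Asah1 and Lamp2), whereas 22 turned in at least 1. With replicate 2 left out, shOSGEP lay above shCtr without overlap in Gaa, Gla, Hexa, Naglu and Arsa, which is 5 of 31 members, and below it in Lamp1, Lipa and Npc2, which is 3 of 31. Over all genes the shares were 9.90% and 10.8%. In that comparison of 2 against 2 libraries the Log2FC of Gaa was 0.61 (SE 0.330) and that of Lamp1 -0.30 (SE 0.307), and neither passed the test.

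The GC content of the transcripts moved with the deviation of shCtr replicate 2. Lysosomal transcripts were somewhat richer in GC than the rest, with a median of 51.6% in the members and 49.7% over all tested genes, and ranged from 38.7% in Lamp2 to 59.8% in Naglu. The log2 distance of shCtr replicate 2 from the other shCtr libraries was above 0 in 26 of 31 members, with a median of 0.81, and its lowest values were those of Lamp2 (-1.90) and Asah1 (-0.90). Across the 31 members it correlated with GC content at a Pearson r of 0.64 and a Spearman rho of 0.53. These points all share the same 3 libraries, and across all tested genes r was 0.71. Among genes with a GC content of 50% or more the median distance was 1.03 in 22 members and 0.91 over all tested genes, and among those below 50% it was 0.12 in 9 members and -1.21 over all. When each library was corrected for GC content and length, the median Log2FC of the members was -0.01, beside 0.02 over all genes, with 13 of 31 above 0. What set shCtr replicate 2 apart was not tested.

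**Figure D5:**
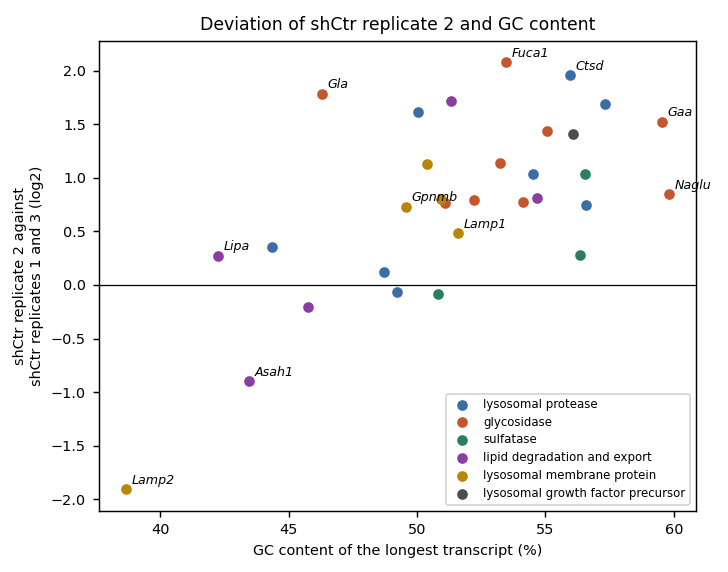
GC content of the longest transcript (horizontal, in %) against the log2 distance of shCtr replicate 2 from the mean of shCtr replicates 1 and 3 (vertical), 1 point per tested member, coloured by role. Lamp2 at 38.7% GC lies at -1.90, and the members at 53% GC or more all lie above 0.

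Among members with a promoter window, those with and without the E-box word had similar medians. The median Log2FC was -0.28 in the 11 members with TCACGTG and -0.27 in the 16 tested members that have a window without it. The 4 members without a window (Asah1, Ctsb, Ctsh and Npc1) had a median of 0.29, and all 4 were above 0. Among the other tested genes the median was -0.02 in the 685 with the word and -0.03 in the 8928 with a window without it. The factors that bind the word were measured as well. Tfeb was at 9.05, 50.6 and 12.3 CPM in shCtr, against 6.84, 13.4 and 16.1 CPM in shOSGEP (Log2FC -0.98, SE 0.722, exact permutation p = 0.6). Tfe3 was at 48.8, 123 and 85.3 CPM in shCtr, against 54.6, 68.9 and 98.2 CPM in shOSGEP (Log2FC -0.21). Mitf was at 339, 29.3 and 244 CPM in shCtr, against 331, 30.6 and 202 CPM in shOSGEP (Log2FC -0.12, SE 0.968). Mitf was low in both libraries of replicate 2, in which Tfeb was high only in shCtr. None of the 3 factors passed the test.

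The other genes of the pathway were read from lists. The 5 further lists were V-ATPase subunits, other hydrolases and cofactors, other membrane proteins, mannose-6-phosphate tagging and sorting, and MiT/TFE factors with their lysosomal control. In the edgeR fit used above (all 6 libraries, TMM, no block, no offsets) 0 of their genes passed either threshold. None had an unadjusted p under 0.05 in that fit. With the replicate block in edgeR, Galc passed the study threshold (Log2FC -1.15, SE 0.431, adjusted p = 0.741), as did 2.94% of all genes. Of 16 V-ATPase subunits all 16 were tested, with a median Log2FC of -0.32 and 11 below 0. Within replicates 1, 2 and 3 the median log2 ratios of the subunits were -0.08, -0.54 and 0.01, so that only replicate 2 lay far below 0. The smallest p values were those of Atp6v0c (0.138), Atp6v1d (0.166) and Atp6v0a1 (0.207). Atp6v1d, a subunit of the rotating stalk, was at 141, 125 and 106 CPM in shCtr, against 85.3, 88.6 and 80.7 CPM in shOSGEP, without overlap. Among the 16 subunits only Atp6v1d had no overlap, beside 6.36% of all genes. Its Log2FC was -0.55 in edgeR. The limma-voom fit with weights and a replicate block, which called 11.1% of all genes, called it at -0.62 (adjusted p = 0.00037).

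Of 29 other hydrolases and cofactors all 29 were tested, with a median of -0.05 and 16 below 0. The smallest p values were those of Ctso (0.0567), Galc (0.0811) and Dpp7 (0.111). Galc, the galactosylceramidase, was at 38.4, 39.4 and 41.1 CPM in shCtr, against 25.7, 8.49 and 25.1 CPM in shOSGEP, so that the shCtr libraries were nearly equal and all shOSGEP libraries lay below them (Log2FC -1.0, SE 0.506). Of the 29 genes, 3 were lower in shOSGEP without overlap (Galc, Gm2a and Hgsnat) and 2 were higher (Lgmn and Scpep1). Over all genes the shares were 2.87% and 3.49%. Ctso, a cysteine protease, was at 6.76, 0.492 and 3.97 CPM in shCtr, against 16.3, 22.1 and 5.90 CPM in shOSGEP, with overlap in 1 library of each group (Log2FC 1.98, SE 0.895). Ctso passed the study threshold in DESeq2 (adjusted p = 1.00) and without the filter on low counts (adjusted p = 0.959). limma-voom with weights and a block called both, at -0.64 for Galc (adjusted p = 0.00077) and 1.16 for Ctso (adjusted p = 2.1e-07). That fit called 4 of these 29 genes, Scpep1 and Man2b2 being the others, beside 11.1% of all genes. All 18 other membrane proteins were tested, with a median of -0.06, and Mfsd8, Cd63 and Tmem175 had the smallest p (0.195, 0.259 and 0.268). With weights and a block limma-voom called Tmem175, a lysosomal potassium and proton channel, at 0.61 (adjusted p = 0.0052). That was 1 of these 18 genes, beside 11.1% of all genes. Of 13 genes of mannose-6-phosphate tagging and sorting 12 were tested, with a median of -0.15 and 8 below 0. Gga3, an adaptor that sorts the receptors at the Golgi, had the smallest p (0.0768) and did not overlap, at 30.5, 39.1 and 30.4 CPM in shCtr, against 23.3, 12.1 and 19.3 CPM in shOSGEP. Among the 12 tested genes only Gga3 had no overlap, beside 6.36% of all genes. The same weighted fit called Gga3 at -0.48 (adjusted p = 0.024), 1 of the 12 tested genes, beside 11.1% of all genes. Gga2 and Sort1 followed, with p values of 0.108 and 0.241. Of 18 MiT/TFE factors and their controllers 17 were tested, with a median of -0.03. Lamtor3, a Ragulator subunit, was at 29.1, 16 and 30.8 CPM in shCtr, against 37.2, 84.5 and 31.4 CPM in shOSGEP (Log2FC 1.01, SE 0.527, exact permutation p = 0.1). Its within-number ratios were 0.35, 2.40 and 0.03, so that replicate 2 differed most. Among the 17 tested genes only Lamtor3 had no overlap, beside 6.36% of all genes. Rraga had a p of 0.133 in edgeR.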

How the data were processed

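RNA of 6 libraries was measured, 3 per group. In the nf-core/rnaseq workflow the authors used TrimGalore, STAR 2.6.1d (mouse GRCm38) and Salmon 1.4.0. The values deposited by the authors are estimated counts per Ensembl gene, whole numbers without normalization or filter, with reads of similar genes divided by likelihood. The annotation release is not given in the sources used here. Groups and replicate numbers came from the labels, and the 31-base words, lengths and GC contents from GENCODE M21.

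Genes were kept by filterByExpr (minimum count 10, minimum total 15), scaled by TMM and tested two-sided with edgeR 4.0.16 (quasi-likelihood F-test, no block, R 4.3.3), with Benjamini-Hochberg adjustment over 12669 genes. The SE is the Log2FC divided by the square root of F. Alternatives were DESeq2 1.42.0, limma 3.58.1 with voom, and those in the closing section. Ratios within a number used plain CPM, and the deviation of shCtr replicate 2 and all-gene ratios used CPM + 0.1. Libraries of the same number deviated together from their group means (correlations 0.811, 0.557 and 0.196, limit 0.1), so the number was treated as pairing them, although the highest correlation between different numbers was 0.491. What a number marks is not given in the sources used here.

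The members and lists were chosen with earlier results of these data known. Values per library are given for Osgep, for members without overlap and for the 3 smallest p values of each role, and for Gaa, Lamp2 and the ranges of a few others, chosen after their values were seen. In each further list the 3 smallest p values are named, beside Tfeb, Tfe3 and Mitf. Depth was 18915587 to 29487384 counts per library, and a floor of 3 counts equals 0.116 to 0.147 CPM, for counting error only.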

Additional observations from a re-analysis of the deposited data

How the results depend on the processing

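In edgeR, 0 members were called under every scaling, filter and left-out library, and with the replicate block, whose median Log2FC was -0.20. The median turned to 0.021 with limma-voom and quality weights and to 0.14 with weights and a replicate block, and that last fit called 1 member at an adjusted p under 0.05 and 1 past the study threshold (Gaa). With GC and length offsets, with or without the block, 1 member passed the study threshold. With at least 10 counts in every library 1 member did not overlap. When libraries or numbers were left out, the median ranged from -0.40 to 0.11 and the members without overlap from 3 to 8 of 31 (9.68% to 25.8%, beside 9.20% to 23.6% of all genes), since fewer libraries overlap less often. The median turned only when shCtr replicate 2 or all of replicate 2 was left out.

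The sign turned in 12 of 31 members in limma-voom with weights, in 15 with weights and the block, in 6 with offsets (with or without the block), in 2 with the block alone and in 14 and 15 without shCtr replicate 2 and without replicate 2. Of the genes named by the rule, those that turned were, in limma-voom with weights, Ctsd 0.040, Gla 0.12, Fuca1 0.0031 and Arsa 0.21. With weights and the block they were Ctsd 0.16, Gla 0.023, Arsa 0.28, Arsb 0.20, Sgsh 0.11, Grn 0.11, Tfe3 0.16 and Atp6v0a1 0.11. Gaa was -0.0054 in DESeq2 and -0.0054 with RLE scaling. Arsa was 0.023 with upper-quartile scaling, 0.29 with offsets and 0.27 with offsets and the block. With libraries left out the ranges were -0.30 to 0.70 for Gaa, -1.45 to 0.23 for Ctsd, -0.82 to 0.33 for Gla, -1.25 to 0.14 for Fuca1, -0.30 to 0.32 for Arsa, -0.40 to 0.17 for Arsb and -0.51 to 0.047 for Sgsh. They were -0.97 to 0.13 for Npc2, -0.81 to 0.11 for Grn, -1.56 to 0.19 for Tfeb, -0.49 to 0.19 for Tfe3, -0.81 to 0.46 for Mitf, -1.02 to 0.13 for Cd63 and -1.19 to 0.15 for Atp6v0a1. The causes were not tested. In the other lists, the study threshold was passed by 1 gene in edgeR with the block (Galc), by 1 in DESeq2 and 1 without a filter (Ctso in both), by 3 in limma-voom with weights, by 3 with offsets, and by 1 in each of the 5 lists with offsets and the block (Atp6v1d, Scpep1, Tmem175, Gga3 and Ppp3cb, named after their values were seen). Over all genes the study threshold was passed by 2.94% with the block, by 4.90% with offsets and by 6.24% with offsets and the block. With weights and the block, 7 list genes passed an adjusted p under 0.05, as did 11.1% of all genes. Upper-quartile scaling moved the median of all genes to 0.07. The low levels of Ctsk and Ctss limit them to a statement of counts.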
